A study of Mus musculus with 10 samples.

Results

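The 8 genes described here encode receptor chains for IL-7 (Il7r), IL-4 (Il4ra), IL-21 (Il21r), IL-6 (Il6ra and Il6st), IL-27 (Il27ra), IL-23 (Il23r) and IL-25 (Il17rb). They were chosen by name from 19938 genes that had 1 symbol in the probe table, and each had 1 probe set. RNA came from regulatory T cells (Tregs) of the spleen of female C57BL/6 mice aged 9 to 14 weeks, sorted as CD4+ cells positive for a red fluorescent reporter of Foxp3. FR1 was CD62Lhi CD69- Klrg1- (n = 2), FR2 was CD62Llo CD69- Klrg1- (n = 2), FR3 Klrg1- was CD62Llo CD69+ Klrg1- (n = 4) and FR3 Klrg1+ was CD62Llo CD69+ Klrg1+ (n = 1). CD62L is a homing receptor of resting lymphocytes, CD69 an early activation marker and Klrg1 a receptor of differentiated lymphocytes. The titles number the grouped arrays as biological replicates. The labels do not say that replicates came from separate mice, so p-values measure only the spread between these arrays. Another array carries the title of FR3 and the marker text of FR1, and was placed in no group.

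Most of these receptors are pairs of chains that signal through JAK kinases and STAT factors. Il7r, Il4ra and Il21r each join the common gamma chain, while Il6ra and Il27ra join gp130, the product of Il6st, and Il23r joins Il12rb1. Il17rb belongs to another family, pairs with Il17ra and signals without JAK kinases. Tregs are known for less Il7r than conventional CD4+ T cells, and IL-6, IL-21 and IL-23 for favouring inflammatory T helper cells.

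Levels are RMA intensities on the log2 scale, where a difference of 1 is a factor of 2. The arrays fell into sets: FR1, FR2 and FR3 Klrg1- replicates 1 and 2 formed the first (6 arrays), and FR3 Klrg1- replicates 3 and 4 with FR3 Klrg1+ the second (3 arrays). Arrays of the same set correlated at 0.972 to 0.991 over all probe sets and arrays of different sets at 0.901 to 0.921. Every fold change below was therefore taken within a set, by a limma fit over the 9 grouped arrays with the set as a term and Benjamini-Hochberg adjustment over all 19938 genes. The fold changes of FR2 and of FR3 Klrg1- against FR1 share the FR1 arrays, and FR3 Klrg1- against FR2 is the difference between them. The T cell markers averaged 10.4 to 10.9 on every array and the Treg markers 10.3 to 11.2, while each list of another cell type averaged between 4.47 and 6.20. Single markers of those lists stood higher. Of the CD8 T and NK cell list, Nkg7 had a mean of 9.06 in FR3 Klrg1- of the first set and Cd8b1 8.03 in FR1. Hpgds, of the innate lymphoid, mast cell and basophil list, was at 8.11 on the FR3 Klrg1+ array.

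**Figure D1:**
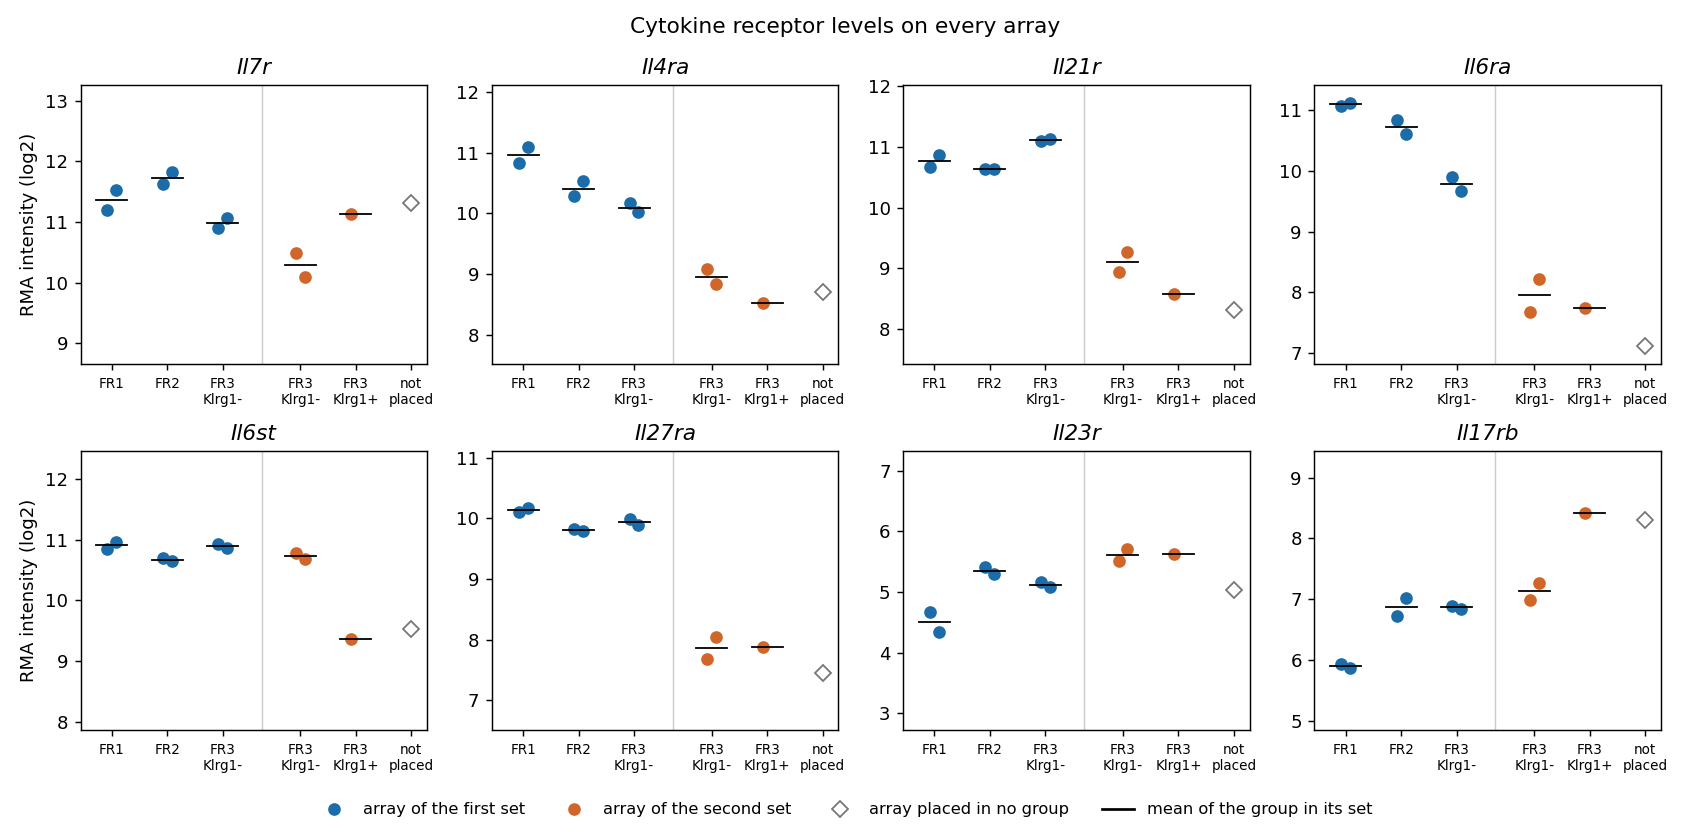
RMA intensity (log2) of each receptor gene on all 10 arrays; circles are arrays of the first (blue) and second (orange) set, the open diamond is the array placed in no group, and black lines are means of a group in its set. All panels span the same range of log2 units. Il6ra and Il4ra are lower in FR3 Klrg1- than in FR1 of the first set, Il6st drops on the FR3 Klrg1+ array, and Il17rb is lowest in FR1 and highest on the FR3 Klrg1+ array.

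Il6ra, the chain that binds IL-6, fell in the CD69+ cells. It stood at 11.08 and 11.12 on the FR1 arrays, 10.85 and 10.61 on FR2, and 9.90 and 9.67 on the FR3 Klrg1- arrays of the first set. The groups did not overlap. FR3 Klrg1- was lower than FR1 by 2.49-fold (log2 -1.31 ± 0.17 SE, adjusted p = 9.53e-05), without each single array too, and lower than FR2 by 1.92-fold (-0.94 ± 0.17, adjusted p = 0.00405). FR2 against FR1 gave -0.37 ± 0.17, which did not pass (adjusted p = 0.276). In sorted populations, fewer cells with the transcript and less transcript per cell cannot be told apart. In the second set Il6ra was at 7.68 and 8.22 in FR3 Klrg1- and 7.74 in FR3 Klrg1+, so the single Klrg1+ array lay between the others (-0.21 ± 0.21, adjusted p = 0.631). The fall from FR2 did not pass without FR2 replicate 1 (-0.82, adjusted p = 0.0856) or FR3 Klrg1- replicate 2 (-0.83, adjusted p = 0.0598).

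Il6st encodes gp130, the signalling chain shared by the receptors for IL-6, IL-27 and several other cytokines, and it behaved otherwise. On the first set it stood at 10.85 and 10.97 for FR1, 10.69 and 10.65 for FR2, and 10.93 and 10.86 for FR3 Klrg1-. These arrays spanned 0.32, and none of the differences among the groups passed; FR3 Klrg1- against FR1 was -0.01 ± 0.13, with a 95% interval from -0.28 to 0.25. The second-set arrays were at 10.77 and 10.68 for FR3 Klrg1- and 9.36 for FR3 Klrg1+, below both. Il6st was thus 2.59-fold lower in FR3 Klrg1+ (-1.37 ± 0.15, adjusted p = 0.000145), and 0.356% of all genes changed by more in that comparison. The FR3 Klrg1+ group is 1 array, which the fit assumes to vary like the others. This call held without each array of the other groups in turn.

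The stretches of 180 bases just before the outermost start of Il6ra (chr3:89913197-89913376, minus strand) and Il6st (chr13:112463890-112464069, plus strand) are shown because these chains of the IL-6 receptor fell in different comparisons. They are RefSeq sequences of GRCm38.p6, written 5′ to 3′, with capitals marking matches to motifs of the regulators listed for this work.
Il6ra: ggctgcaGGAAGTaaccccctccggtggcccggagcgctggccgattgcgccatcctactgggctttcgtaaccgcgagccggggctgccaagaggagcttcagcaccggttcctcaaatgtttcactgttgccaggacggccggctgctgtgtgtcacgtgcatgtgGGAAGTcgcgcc
Il6st: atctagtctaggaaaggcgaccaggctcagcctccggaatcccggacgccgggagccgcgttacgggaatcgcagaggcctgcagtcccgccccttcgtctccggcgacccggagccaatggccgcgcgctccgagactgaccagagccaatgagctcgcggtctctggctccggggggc
The search covered both strands. For FOXO factors the letters were GTAAACA and for LEF/TCF factors they were CTTTGA. For ETS factors the letters were GGAAGT and for RUNX factors they were TGTGGT. The CACCC box of Klf factors was searched as CCACCC, and the GAS motif of STAT factors as TTCNNNGAA. The Il6ra stretch held GGAAGT at 173 to 168 and at 12 to 7 bases before the start, a motif found in 15.8% of 13151 such stretches of protein-coding genes. The Il6st stretch held none of the 6 motifs. The shares of all stretches with the other motifs were 1.79% (FOXO), 9.76% (LEF/TCF), 9.36% (RUNX), 22.2% (CACCC box) and 5.05% (GAS), and no match overlapped another in the stretches shown.

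Il27ra, the chain that gives gp130 its specificity for IL-27, passed in no comparison. Its first-set arrays were at 10.10 and 10.16 (FR1), 9.82 and 9.78 (FR2), and 9.99 and 9.89 (FR3 Klrg1-). FR2 lay below FR1 by -0.33 ± 0.14 (adjusted p = 0.229), with a 95% interval from -0.63 to -0.03. The second-set levels were 7.69 and 8.04 in FR3 Klrg1- and 7.89 in FR3 Klrg1+, which differed by 0.03 ± 0.17 (95% interval -0.34 to 0.39).

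Il7r, the alpha chain of the IL-7 receptor, was lowest in FR3 Klrg1- within each set. The first-set arrays stood at 11.20 and 11.53 for FR1, 11.62 and 11.82 for FR2, and 10.91 and 11.07 for FR3 Klrg1-. FR3 Klrg1- was 1.66-fold lower than FR2 (-0.73 ± 0.16, adjusted p = 0.0167). FR1 lay between them, and neither FR2 against FR1 (0.36 ± 0.16, adjusted p = 0.274) nor FR3 Klrg1- against FR1 (-0.38 ± 0.16, adjusted p = 0.223) passed. FR3 Klrg1- of the second set stood at 10.49 and 10.09 and FR3 Klrg1+ at 11.12, a rise of 1.78-fold (0.83 ± 0.20, adjusted p = 0.0273). The call of FR3 Klrg1- against FR2 was lost without any array of these groups in the first set, where log2 values ran from -0.63 to -0.83 and adjusted p from 0.0584 to 0.179. That of FR3 Klrg1+ was lost without FR3 Klrg1- replicate 4 (0.63, adjusted p = 0.0658).

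The stretch before the start of Il7r (chr15:9529942-9530121, minus strand) is shown because Il7r, alone of Il7r, Il4ra and Il21r, was called in both sets, and because STAT factors act downstream of it. The capitals mark TTCAGGGAA, a match to the GAS motif at 77 to 69 bases before the start.
Il7r: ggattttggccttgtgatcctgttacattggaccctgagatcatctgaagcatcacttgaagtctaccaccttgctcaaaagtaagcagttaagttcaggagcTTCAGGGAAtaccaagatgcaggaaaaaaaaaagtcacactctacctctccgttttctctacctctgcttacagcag
Il7r was the 1 gene with a GAS match among the 6 receptor genes with such a stretch in the RefSeq table, where 5.05% of all stretches held one. Its GC content was 43.9%, against a median of 55.0% over all stretches and 64.4% and 68.9% for Il6ra and Il6st.

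Il4ra, the binding chain for IL-4 and, with Il13ra1, for IL-13, fell from FR1 to FR3 Klrg1-. The FR1 arrays stood at 10.83 and 11.10, FR2 at 10.29 and 10.53, and FR3 Klrg1- at 10.17 and 10.02, without overlap. FR3 Klrg1- was 1.83-fold lower than FR1 (-0.87 ± 0.15, adjusted p = 0.00122), a call kept without each array in turn (log2 -1.005 to -0.73). FR2 was 1.47-fold lower than FR1 (-0.56 ± 0.15, adjusted p = 0.0494), at the edge of the threshold: the call was lost without any single array of the first set (adjusted p = 0.0708 to 0.424) and with quantile normalization (-0.50, adjusted p = 0.0658). FR3 Klrg1- against FR2 did not pass (-0.31 ± 0.15, adjusted p = 0.333). Il4ra of the second set was at 9.08 and 8.84 in FR3 Klrg1- and 8.53 in FR3 Klrg1+ (-0.43 ± 0.18, adjusted p = 0.203).

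Il21r, the IL-21 receptor, was highest in FR3 Klrg1- of the first set. It stood at 10.67 and 10.87 for FR1, 10.63 and 10.64 for FR2, and 11.09 and 11.13 for FR3 Klrg1-, the last above all others. FR3 Klrg1- exceeded FR2 by 0.48 ± 0.14, which did not pass (adjusted p = 0.0743) and did pass in the fit of the first set alone (adjusted p = 0.0298). Against FR1 it gave 0.34 ± 0.14 (adjusted p = 0.193), and FR2 against FR1 gave -0.13 ± 0.14 (95% interval -0.43 to 0.17). In the second set FR3 Klrg1- stood at 8.95 and 9.27 and FR3 Klrg1+ below both at 8.58 (-0.53 ± 0.17, adjusted p = 0.0972), a difference that passed without FR3 Klrg1- replicate 3 (-0.69, adjusted p = 0.0327) or with an intensity trend in the variance (adjusted p = 0.0395).

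Il17rb, which binds IL-25, rose in both CD62Llo groups and further in FR3 Klrg1+. It stood at 5.92 and 5.86 for FR1, 6.72 and 7.01 for FR2, and 6.89 and 6.84 for FR3 Klrg1- of the first set. FR2 was 1.96-fold above FR1 (0.97 ± 0.14, adjusted p = 0.00094), as was FR3 Klrg1- (0.97 ± 0.14, adjusted p = 0.000327). FR3 Klrg1- and FR2 differed by 0.00 ± 0.14, with a 95% interval from -0.30 to 0.31. The second set had FR3 Klrg1- at 6.99 and 7.27 and FR3 Klrg1+ at 8.42, which was 2.44-fold higher (1.29 ± 0.18, adjusted p = 0.000818). The calls against FR1 and that of FR3 Klrg1+ held without each single array of the replicated groups. The level of Il17rb lay at percentiles 44.08 and 44.45 of the probe sets in FR1 and at 82.1 on the FR3 Klrg1+ array.

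The stretch before the start of Il17rb (chr14:30008897-30009076, minus strand) is shown because this gene had the largest rise among the 8 receptors, in FR3 Klrg1+. It held none of the 6 motifs, and its GC content was 71.7%.
Il17rb: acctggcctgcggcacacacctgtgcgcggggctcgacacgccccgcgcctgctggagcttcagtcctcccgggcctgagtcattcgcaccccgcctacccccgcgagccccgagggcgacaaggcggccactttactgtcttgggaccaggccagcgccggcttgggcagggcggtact

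Il23r, the specific chain of the IL-23 receptor, rose in the CD62Llo groups of the first set from a level near the floor. Its arrays were at 4.67 and 4.34 (FR1), 5.41 and 5.29 (FR2), and 5.16 and 5.08 (FR3 Klrg1-). FR2 exceeded FR1 by 0.85 ± 0.14 (adjusted p = 0.00293) and FR3 Klrg1- by 0.62 ± 0.14 (adjusted p = 0.0125). The FR1 arrays lay at percentiles 20.4 and 15.8 of the probe sets, and no array passed percentile 37.8. The first call was lost without FR1 replicate 2 (0.68, adjusted p = 0.0592) or FR2 replicate 1 (0.79, adjusted p = 0.0612). The second was lost without FR1 replicate 2 (0.45, adjusted p = 0.183) or FR3 Klrg1- replicate 1 (0.57, adjusted p = 0.119) or 2 (0.66, adjusted p = 0.0665). FR3 Klrg1- against FR2 gave -0.23 ± 0.14 (adjusted p = 0.507). In the second set Il23r was at 5.51 and 5.71 in FR3 Klrg1- and 5.63 in FR3 Klrg1+ (0.02 ± 0.18). Il23r was the 1 receptor of the 8 below percentile 40 of the gene means.

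**Figure D2:**
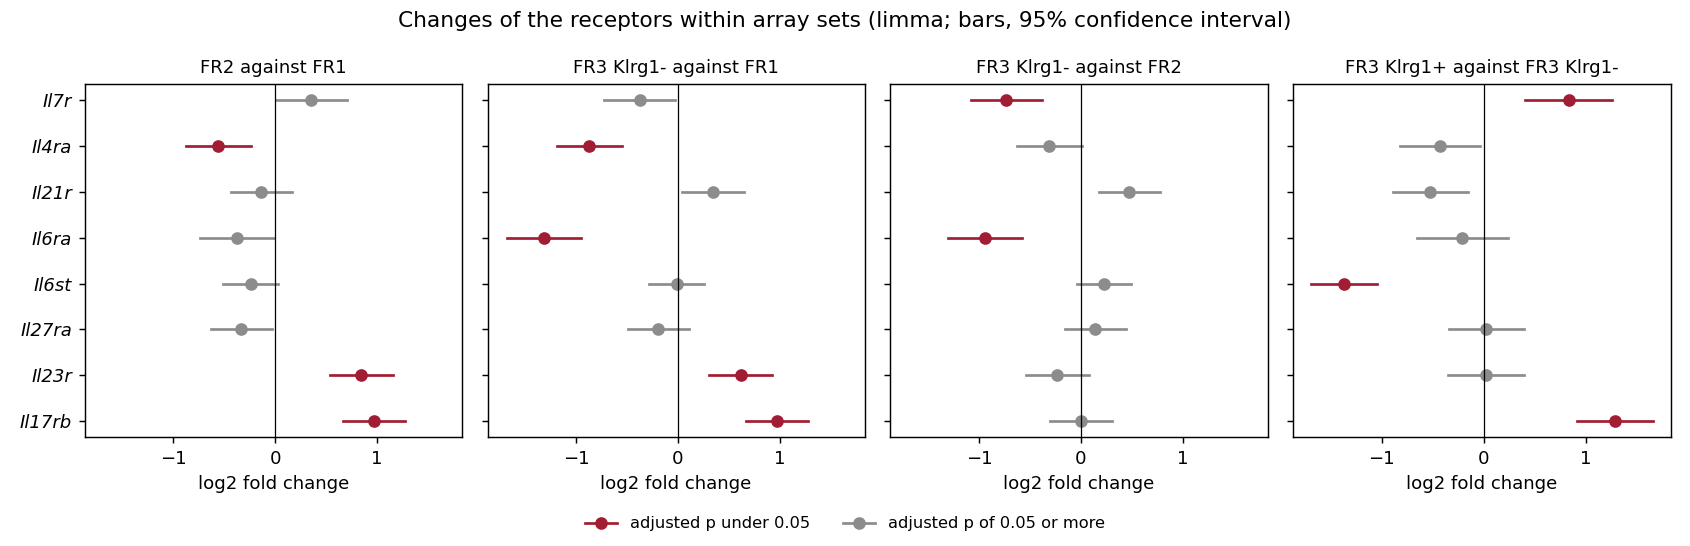
Log2 fold change of each receptor gene in the 4 comparisons, with 95% confidence intervals from limma; red marks an adjusted p under 0.05 and grey the rest. FR3 Klrg1- against FR1 has the most red points, 4 of 8, and the longest shifts are those of Il6st and Il17rb in FR3 Klrg1+ and of Il6ra in FR3 Klrg1- against FR1.

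In FR2 against FR1, the comparison of the CD62L gate among CD69- cells, 2 of the 8 receptors rose (Il17rb and Il23r) and 1 fell (Il4ra). Of all genes, 4.26% were called, 1.96% higher and 2.3% lower. All 8 had arrays that did not overlap, as did 48.6% of all genes. The split of all calls moved with the scaling, from 391 higher and 459 lower to 418 and 318 after quantile normalization and to 302 and 791 after centring arrays on their medians. The count of 3 receptors fell to 1 without FR1 replicate 2 or FR2 replicate 1. The count over all genes fell from 850 to 351 and 355 without FR1 replicates 1 and 2, and to 253 and 522 without FR2 replicates 1 and 2. It rose to 1331 without FR3 Klrg1- replicate 3 or 4.

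In FR3 Klrg1- against FR1, which spans the gates for CD62L and CD69, 2 rose (Il17rb and Il23r) and 2 fell (Il6ra and Il4ra), where 8.19% of all genes were called, 4.39% higher and 3.79% lower. The arrays of 7 did not overlap, against 49% of all genes. In FR3 Klrg1- against FR2, which isolates the CD69 gate among CD62Llo cells, 0 rose and 2 fell (Il6ra and Il7r) by limma, where 4.75% of all genes were called, 2.81% higher and 1.94% lower. The arrays of 7 did not overlap, against 48.8% of all genes. Leaving out FR2 replicate 1 or FR3 Klrg1- replicate 2 left 0 of the 8, and leaving out FR2 replicate 2 or FR3 Klrg1- replicate 1 left 1. In FR3 Klrg1+ against FR3 Klrg1-, within the second set, 2 rose (Il17rb and Il7r) and 1 fell (Il6st), where 4.96% of all genes were called, 2.14% higher and 2.82% lower. The arrays of 5 did not overlap, against 72.5% of all genes. Without FR3 Klrg1- replicate 4 the count over all genes in this comparison rose from 989 to 1553. The counts over all genes also moved by over 1.5 times in FR3 Klrg1- against FR1 (1632, against 1007, 990 and 910 without FR1 replicate 2 and FR3 Klrg1- replicates 1 and 2) and against FR2 (948, against 302, 521, 312 and 414 without FR2 replicates 1 and 2 and FR3 Klrg1- replicates 1 and 2).

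A fit without the array set, in which the spread between the sets counts as noise, called far fewer genes. FR3 Klrg1- is there the mean of its arrays in both sets, so the set difference also enters its fold changes. Il6ra in FR3 Klrg1- against FR1, for example, moved from -1.31 to -2.23. Of the 8 receptors this fit called 0 in FR2 against FR1, where 0.261% of all genes were called. In FR3 Klrg1- against FR1 it called 1, Il17rb (adjusted p = 0.012), where 2.2% of all genes were called. It called 0 in FR3 Klrg1- against FR2, where 0.276% of all genes were called, and 1 in FR3 Klrg1+, Il6st (adjusted p = 0.0199), where 0.11% were.

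Between the sets, the FR3 Klrg1- arrays with the same labels differed by more than 1 in 4 of the 8 genes. Replicates 1 and 2 lay above replicates 3 and 4 by 2.08 for Il27ra, 2.00 for Il21r, 1.83 for Il6ra and 1.14 for Il4ra, whereas Il6st (0.17), Il7r (0.70), Il17rb (-0.26) and Il23r (-0.49) differed by less than 1. Over all genes the median absolute difference was 0.28, and 10.3% of genes differed by more than 1. Of the T cell markers 5 of 7 and of the Treg markers 7 of 8 were also higher in the first set, among them Cd4 (1.68) and Foxp3 (0.89). The median signed differences were 0.38 and 0.78 for these lists, against -0.02 over all genes. What separates the sets was not tested and is not in the labels, and no difference across them was tested.

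The partner chains were taken from lists of cytokine receptors. Il12rb1, the partner of Il23r, rose with it in FR2 (0.58 ± 0.14, adjusted p = 0.0333) and FR3 Klrg1- (0.64 ± 0.14, adjusted p = 0.00998) against FR1. Il17ra, the partner of Il17rb, fell in FR3 Klrg1- against FR1 (-1.07 ± 0.13, adjusted p = 3.91e-05) and FR2 (-0.62 ± 0.13, adjusted p = 0.00985). Il13ra1, the second chain of the IL-13 receptor with Il4ra, stood below the array medians of 6.15 to 6.31. From this low level it rose in FR3 Klrg1- against FR1 (means of 5.48 and 4.58, 0.90 ± 0.16), where Il4ra fell. In FR3 Klrg1+ it was lower (5.02, against a mean of 5.75 in FR3 Klrg1- of the second set, -0.73 ± 0.19). The common gamma chain itself was not analysed here. Il9r, another of its partners, rose in FR2 (1.43 ± 0.13) and fell from FR2 to FR3 Klrg1- (-1.17 ± 0.13). Il2rb, the IL-2 and IL-15 receptor chain, rose in FR3 Klrg1- against FR2 (0.61 ± 0.14, adjusted p = 0.0172), and Il2ra fell in FR2 (-0.73 ± 0.13) and FR3 Klrg1- (-0.47 ± 0.13) against FR1.

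**Figure D3:**
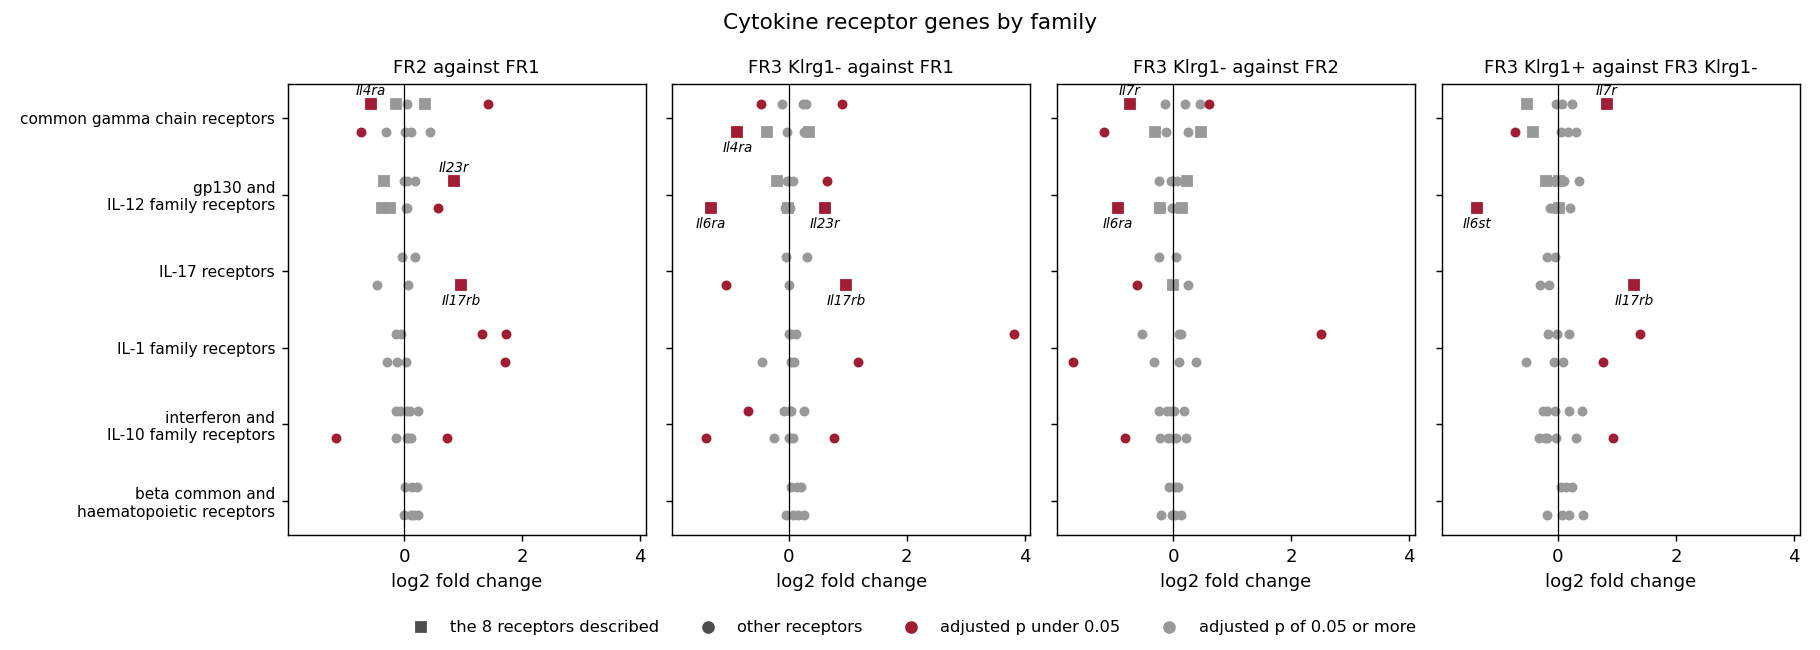
Log2 fold change of 51 cytokine receptor genes by family in the 4 comparisons; squares are the 8 receptors described here and circles the rest, red where the adjusted p was under 0.05, spread vertically for legibility. Red points lie on both sides of 0 in each of the other 5 families over the 4 comparisons, and no member of the beta common family is red.

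Of 56 cytokine receptors listed 51 were measured, and 43 of these are not among the 8. Of the 43, limma called 6 higher and 2 lower in FR2 against FR1, 5 and 4 in FR3 Klrg1- against FR1, 2 and 4 in FR3 Klrg1- against FR2, and 3 and 1 in FR3 Klrg1+. These are 18.6%, 20.9%, 14.0% and 9.30% of them, against 4.26%, 8.19%, 4.75% and 4.96% of all genes. Their median log2 changes lay between -0.01 and 0.05, and those of all genes between -0.0035 and 0.023. The lists were chosen with earlier results of these data known, so these shares are a description and not a test of cytokine receptors. Among the IL-1 family receptors 3 of 8 rose in FR2 against FR1 (Il1r2, Il18r1 and Il18rap), where 1.96% of all genes rose. Il1r2 rose by 1.32 ± 0.18 there, and by 3.82 ± 0.18 in FR3 Klrg1- against FR1, the largest change of the 51. It also rose from FR2 to FR3 Klrg1- (2.51 ± 0.18). Il18r1, an IL-18 receptor chain, rose by 1.73 ± 0.14 in FR2, fell from FR2 to FR3 Klrg1- (-1.70 ± 0.14) and rose in FR3 Klrg1+ (0.77 ± 0.17). Il18rap rose in FR2 (1.72 ± 0.17) and FR3 Klrg1- (1.18 ± 0.17) against FR1, and in FR3 Klrg1+ (1.40 ± 0.21). Of 11 interferon and IL-10 family receptors, Ifngr2 fell in FR2 (-1.16 ± 0.14) and FR3 Klrg1- (-1.41 ± 0.14) against FR1, and Il10ra rose in these (0.72 ± 0.15 and 0.76 ± 0.15) and in FR3 Klrg1+ (0.94 ± 0.18). Of 7 beta common and haematopoietic receptors limma called 0 in all 4 comparisons, with 1 at an unadjusted p under 0.05, in FR3 Klrg1+, where 19.9% of all genes were.

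Of 6 STAT genes limma called 0 in each of the 4 comparisons, with 0, 1, 1 and 0 at an unadjusted p under 0.05 in the order above, where 17.2%, 18.2%, 15.7% and 19.9% of all genes were. Stat3, which serves IL-6, IL-21, IL-23 and IL-27, changed by between 0.02 and 0.17, and Stat6, which serves IL-4, by between -0.22 and -0.02. Of 3 JAK kinases Jak2 rose in FR3 Klrg1- against FR1 (0.74 ± 0.14, adjusted p = 0.0022) and was the 1 called in the 4 comparisons, with 1, 2, 1 and 2 of the 3 at an unadjusted p under 0.05. Jak1 lay between -0.19 and 0.01. Of 16 inhibitors, 3 rose and 1 fell in FR3 Klrg1- against FR1, where 4.39% of all genes rose and 3.79% fell. Ptpn11, a phosphatase that binds gp130, rose by 0.75 ± 0.13, and Cish, a feedback inhibitor of STAT5, rose by 0.52 ± 0.13. Socs2 fell there (-0.55 ± 0.14) and in FR3 Klrg1- against FR2 (-0.82 ± 0.14). Limma called 0 of the 16 in FR2 against FR1 and in FR3 Klrg1+ (4 and 6 at an unadjusted p under 0.05, where 17.2% and 19.9% of all genes were). Socs3, the inhibitor that binds gp130, lay between -0.34 and 0.06.

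Of 18 ligands, Ebi3, a chain of IL-27 and IL-35, rose in all 4 comparisons. It rose by 0.87 ± 0.14 in FR2 and 1.97 ± 0.14 in FR3 Klrg1- against FR1, and by 1.10 ± 0.14 from FR2 to FR3 Klrg1-. The rise of 0.71 ± 0.17 in FR3 Klrg1+ was not called in the fit of the second set alone. Il4 rose in FR3 Klrg1- against FR1 (0.72 ± 0.13) and FR2 (0.61 ± 0.13) and in FR3 Klrg1+ (0.92 ± 0.16, adjusted p = 0.00572). Clcf1 (-0.73 ± 0.13) and Osm (-0.51 ± 0.14), ligands of gp130 receptors, fell in FR3 Klrg1- against FR1. Il6, Il7, Il25 and Il27 passed in none of the comparisons.

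Of 14 genes downstream of STAT3 and STAT6, 6 rose in FR2 and 8 rose and 1 fell in FR3 Klrg1- against FR1, with medians of 0.32 and 0.99. Of all genes 4.26% and 8.19% were called there, with medians of 0.023 and 0.016. In FR3 Klrg1- against FR2, where 4.75% of all genes were called, 4 were called, each higher, with a median of -0.03. In FR2 and FR3 Klrg1- against FR1, the transcription factor Maf rose by 1.72 ± 0.14 and 1.81 ± 0.14. Prdm1, the gene for Blimp-1, rose there by 1.41 ± 0.21 and 1.68 ± 0.21, and Rora by 1.61 ± 0.13 and 1.20 ± 0.13. Il10 had the largest change of the list in both (2.10 ± 0.21 and 3.74 ± 0.21). It also rose from FR2 to FR3 Klrg1- (1.64 ± 0.21) and in FR3 Klrg1+ (1.26 ± 0.25). Ikzf3, the gene for Aiolos, was the 1 that fell in FR3 Klrg1- against FR1 (-0.75 ± 0.14). Bcl6, the regulator of follicular cells, rose from FR2 to FR3 Klrg1- (1.39 ± 0.17) and fell in FR3 Klrg1+ (-0.78 ± 0.21, adjusted p = 0.0448). In FR3 Klrg1+, where 4.96% of all genes were called, 5 rose and 2 fell (median 0.46), among them Gata3, the regulator of type 2 responses, which rose by 1.33 ± 0.17 (adjusted p = 0.000346). These genes have other inputs than the receptors described, and their list was chosen with earlier results of these data known.

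Of 13 regulators of Il7r and of receptor shedding, the lymphocyte homing regulator Klf2 and the T cell factor Lef1 fell in both comparisons of FR3 Klrg1- in the first set: Klf2 gave -1.94 ± 0.15 and Lef1 -1.26 ± 0.13 in FR3 Klrg1- against FR1, and -1.29 ± 0.15 and -0.75 ± 0.13 against FR2. Both also fell in FR2 against FR1 (-0.65 ± 0.15 and -0.51 ± 0.13). No link between the regulators of this list and a receptor was tested. Runx3, a transcription factor of the same list, rose in FR2 against FR1 (0.85 ± 0.17, adjusted p = 0.0075) and fell from FR2 to FR3 Klrg1- (-0.81 ± 0.17, adjusted p = 0.00977), the 1 regulator of the 13 called higher in any comparison. Foxp1, a repressor of Il7r, fell in FR3 Klrg1- against FR1 (-0.74 ± 0.13) and in FR3 Klrg1+ (-0.94 ± 0.16, adjusted p = 0.00425). Il7r stood at -0.38 ± 0.16 (adjusted p = 0.223) in the first of these and rose in the second. Foxo1, an activator of Il7r, stood at -0.41 ± 0.13 (adjusted p = 0.0645) in FR3 Klrg1- against FR1 and -0.52 ± 0.15 (adjusted p = 0.069) in FR3 Klrg1+. Adam10 and Adam17, proteases that shed Il6ra from the cell, passed in none of the comparisons. Of 7 survival genes linked to IL-7, Bcl2 fell in FR2 (-1.23 ± 0.14) and FR3 Klrg1- (-1.43 ± 0.14) against FR1. Bcl2 also fell in FR3 Klrg1+ (-0.69 ± 0.17), a change not called in the fit of the second set alone. Its antagonist Bcl2l11, the gene for Bim, fell in FR2 (-1.47 ± 0.14) and FR3 Klrg1- (-1.39 ± 0.14) against FR1.

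Of the 8 Treg markers 5 rose and 1 fell in FR3 Klrg1- against FR1, with summed log2 levels of 89.8 and 89.6 against 85.9 and 86.6, and of 7 T cell markers 2 rose and 1 fell, where 4.39% of all genes rose and 3.79% fell. Of 7 CD8 T and NK cell markers Nkg7 (1.67 ± 0.15) and Klrb1c (1.15 ± 0.14) rose and Cd8b1 fell (-0.55 ± 0.13) in FR3 Klrg1- against FR1, where their summed log2 levels were 43.4 and 42.2 against 40.3 and 40.003. Nkg7 (1.21 ± 0.15) and Klrb1c (1.09 ± 0.14) also rose in FR3 Klrg1- against FR2, where 2.81% of all genes rose and where Il6ra and Il7r fell. The sums there were 43.4 and 42.2 against 39.6 and 40.9. Each sum includes the called markers of its list. The median changes of the CD8 T and NK cell list were 0.24 against FR1 and 0.14 against FR2. Hpgds rose in FR3 Klrg1- against FR1 too (0.63), and Cd79a, of the 7 B cell markers, fell (-0.68). In FR3 Klrg1+, where Il17rb and Gata3 rose, Hpgds rose (0.86 ± 0.20), the 1 called of 6 markers of innate lymphoid cells, mast cells and basophils. Their summed level, which includes Hpgds, was 30.7 there against 29.4 and 29.9 in FR3 Klrg1- of the second set, and their median change was 0.11. Of the Treg markers Tnfrsf18 rose (0.81) and Lrrc32 fell (-0.98) there, and Klrb1c fell (-0.66). Flt3, of the 6 dendritic cell markers, rose as well (0.91 ± 0.15), to 5.74 from a mean of 4.83. The sums of its list were 32.6 against 30.4 and 31.4. Fcgr1, of the 6 markers of macrophages and monocytes, rose (0.68 ± 0.17), to 6.20 from a mean of 5.53. The sums of its list were 33.1 against 33.9 and 34.9. The changes of Fcgr1 and Klrb1c there were not called in the fit of the second set alone. Flt3, Klrb1c and Cd79a had group means below the array medians of 6.15 to 6.31 in the comparisons named for them. The part of the cell types of these lists in the receptor changes was not tested.

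Of the receptors, 4 spanned at least 1 log2 unit over the 6 arrays of the first set, and the genes with the most similar course there were sought among 859 others that did. For Il6ra these were S1pr4, a receptor for sphingosine-1-phosphate (Pearson r = 0.999), the adaptor Grap2 (r = 0.994) and Ifi206 (r = 0.992). Il4ra was matched by Lmo4 (r = 0.997), Nedd4l (r = 0.997) and Mxd1 (r = 0.992). Il17rb was matched by the chemokine receptor Ccr6 (r = 0.990), Dkkl1 (r = 0.989) and Rnf43 (r = 0.987), and Il23r by Raph1 (r = 0.972), the protease Adam8 (r = 0.972) and Egln3 (r = 0.961). These are the highest of many correlations over 6 arrays in 3 groups, given as a description. Ccr6 had means of 6.24, 7.74 and 7.81 over FR1, FR2 and FR3 Klrg1-, and S1pr4 was at 10.33, 9.97 and 8.93.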

How the data were processed

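The deposited values are RMA log2 intensities from Affymetrix Mouse Gene ST 1.0 arrays, per the labels and the submitters' processing notes, which name RMA without a version. Amplification started from 20 to 50 ng of total RNA, per the labels. The sources do not state whether the authors normalized all 10 arrays together. Array medians lay between 6.15 and 6.31.

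The probe table gave 1 symbol for 21789 of 35556 probe sets and several for 1621, and did not list 12146. The brightest probe set per symbol left 19938 genes, with no intensity filter. A fit with limma 3.58.1 in R 4.3.3 used group and array set over the 9 grouped arrays, with Benjamini-Hochberg adjustment at 0.05, and was tested on simulated data. The number of arrays limits the precision. Genes were named as the 8 receptors, up to 3 called genes per list and comparison with the largest change and no overlap of arrays, called markers, and the 3 most correlated genes per receptor. Not all of the called genes that qualified are described. Other genes of the lists were named after their values were seen. The array sets, receptors, lists and tests were chosen with earlier results of these data known. Replicate numbers were not taken as pairs, and the titles do not state whether same-numbered arrays belong together.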

Additional observations from a re-analysis of the deposited data

How the results depend on the processing

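The number of arrays and the array sets set the limits. Leaving the array set out of the fit also puts the set difference into the fold changes of FR3 Klrg1-. Without the array set in the fit the spread between the sets counts as noise, and limma called 52, 439, 55 and 22 genes and 0, 1, 0 and 1 of the 8 receptors in FR2 against FR1, FR3 Klrg1- against FR1, FR3 Klrg1- against FR2 and FR3 Klrg1+ (850, 1632, 948 and 989 genes and 3, 4, 2 and 3 receptors with it). With a fold change past 1 on the log2 scale also required these were 158, 429, 145 and 212 genes, and 0, 1 and 0 receptors in the first 3 comparisons. The fit of the first set alone called 1331 genes in FR2 against FR1, and leaving out genes under percentile 40, which drops Il23r, called 1401. Array weights called 1618 in FR3 Klrg1- against FR2. Leaving out 1 array at a time gave 253 to 1331, 910 to 2063, 302 to 1318 and 721 to 1553 genes, and 1 to 3, 3 to 4, 0 to 3 and 2 to 4 receptors.

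With the replicate block in the first set limma called 1669 genes in FR2 against FR1 and 1586 in FR3 Klrg1- against FR2, with Il21r called as well in the latter (adjusted p = 0.0226); no other receptor call changed. Deviations of same-numbered arrays correlated at 0.18, 0.14 and 0.02, so the numbers were not taken as pairs. FR3 Klrg1+ shares fewer than 2 numbers with FR3 Klrg1- of its set, so no such fit was made for it.

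Direction turned for values that had not passed. Without the array set, where the set difference enters the fold change, these were Il21r in FR3 Klrg1- against FR1 (-0.66) and FR2 (-0.53). They were also Il27ra in FR3 Klrg1- against FR2 (-0.90) and in FR3 Klrg1+ (-1.01), and Il23r in FR3 Klrg1- against FR2 (0.0160). With quantile normalization they were Il6st in FR3 Klrg1- against FR1 (0.00698), Il17rb in FR3 Klrg1- against FR2 (-0.0242) and Il23r in FR3 Klrg1+ (-0.0177). Leaving out single arrays turned Il6st in FR3 Klrg1- against FR1 (-0.0709 to 0.0437), Il17rb in FR3 Klrg1- against FR2 (-0.14 to 0.15), and Il27ra (-0.15 to 0.20), Il23r (-0.0778 to 0.12) and Il6ra (-0.48 to 0.0643) in FR3 Klrg1+.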

Other observations

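The array placed in no group correlated at 0.973 to 0.975 with the arrays of the second set and at 0.904 to 0.917 with those of the first. Its receptor levels were 11.31 for Il7r, 9.53 for Il6st, 8.30 for Il17rb, 8.70 for Il4ra, 8.31 for Il21r, 7.46 for Il27ra, 7.11 for Il6ra and 5.03 for Il23r. For Il7r, Il6st and Il17rb these lie nearer to the FR3 Klrg1+ array (11.12, 9.36 and 8.42) than to FR3 Klrg1- replicates 3 and 4, whose means were 10.29, 10.73 and 7.13. These genes are the receptors called in FR3 Klrg1+ against FR3 Klrg1-. Il4ra lay between the FR3 Klrg1+ array and both of these replicates, and Il21r, Il27ra, Il6ra and Il23r lay below every array of the second set. Its title and marker text disagree on its subset, and no group was inferred from these values.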
